A study of Mus musculus with 9 samples.

Results

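The cells described here were the noncycling thymocytes of the CD4 single-positive (SP) gate, compared between wild-type (WT) mice and mice with the I173A substitution in CD3ε. The cells were chosen by measured values (hashtag counts, gene number, mitochondrial share and cycling-gene UMIs), and genotype ratios were then taken over all genes. They came from thymus of adult female mice, were sorted as CD4+CD8- and were sequenced on the 10x Genomics 5′ platform with paired T cell receptor (TCR) libraries. Before the sort, cells of each genotype were stained with an antibody carrying its own oligonucleotide tag, called a hashtag, and both genotypes were then run in 1 library. Each genotype is therefore 1 sample, and whether the I173A allele was carried on 1 or both chromosomes, the age in weeks and the number of mice are not given in the sources used here. A cell was kept when it had at least 500 genes, at most 10% of its unique molecular identifiers (UMIs) from mitochondrial genes, and a single dominant hashtag (10 counts or more, and no less than 4 times any other). Cells whose UMIs of Mki67, Top2a, Cdk1, Birc5, Ube2c and Ccnb2 summed to 5 or more were left out as cycling. These rules left 5647 cells, 3040 WT and 2607 I173A, of the 26990 barcodes in the 3 gates of the series and the 9081 of this gate.

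The hashtag oligonucleotides decided which genotype a cell was given, and they are shown here from the deposited feature table for that reason. Hashtag 4 marked WT and hashtag 6 marked I173A, per the labels. Hashtag 5 was also present in the matrix, on 2745 noncycling cells, and carries no genotype in the labels.
Hashtag 4: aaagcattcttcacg
Hashtag 5: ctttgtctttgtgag
Hashtag 6: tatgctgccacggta
The median count of the winning hashtag was 160.0 in WT and 242 in I173A cells, and the median count of the runner-up was 2 in both.

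CD3ε is a signalling chain of the complex that surrounds the TCR and passes its signal into the cell. Thymocytes that recognise self peptide on MHC class II become CD4 SP cells, pass through a semimature stage in which they can still be deleted, and then gain the receptors needed to leave the thymus. Cells with a strong signal are deleted, become anergic or are diverted to the regulatory T cell lineage, and TCR signal strength also sets how a T cell uses glucose and lipids. CPT1A, which loads long-chain fatty acids onto carnitine, is the entry step of mitochondrial fatty acid oxidation.

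The 2 groups held 19349030 UMIs in WT and 15761003 in I173A cells. The median was 6029 and 5738 UMIs per cell, 2381 and 2351 genes per cell, and 1.65% and 1.79% mitochondrial UMIs. The exclusion by cycling genes removed 69 WT and 57 I173A cells, 2.22% and 2.14% of those that passed the other rules. Among the cells just inside that threshold, 8 WT and 2 I173A cells had 4 UMIs of the 6 genes, and just outside it 1 cell of each genotype had 5. Cd4 was at 381 and 406 counts per 1000000 UMIs (CPM) in WT and I173A, and Zbtb7b, which directs cells to the CD4 lineage, at 111 and 100.4 CPM, while no Zbtb7b UMI was found in noncycling CD8 SP cells. Cd8a was at 29.5 CPM in WT and 42.3 CPM in I173A cells, against 1322 and 1155 CPM in the CD8 SP gate. Summed B cell markers were at 120.4 and 112 CPM, macrophage and dendritic markers at 100.4 and 109.9, epithelial and stromal markers at 97.1 and 106, and erythroid markers at 6.67 and 0. The B cell marker Ms4a1 had no UMI, and Pecam1 alone was at 89.9 and 96.3 CPM of the epithelial and stromal sum. Ratios without cells holding 3 or more UMIs of these markers are among the alternatives given at the end. Beyond that, the part of other cell types in the differences below was not tested. Of the cell barcodes, 44 were also among the noncycling cells of the CD8 SP library and 38 among those of the DP library.

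With 1 sample per genotype there is no replicate, and no test could be run. Each ratio below is I173A over WT in summed CPM, with an exact 95% interval for 2 Poisson counts that covers counting error only and not the spread between mice. A gene counted as measured when its mean over both genotypes reached 10 CPM, which 8012 genes did. Among these, 169 (2.11%) were at least 1.3-fold higher in I173A, 64 (0.799%) at least 1.3-fold lower, and 233 (2.91%) were past that fold either way. Scaling by median-of-ratios size factors gave 122 higher and 95 lower. In all, 62% of genes were higher by any amount, and the median log2 ratio was 0.04. Genes were named because of these same ratios, so the 20 highest and 20 lowest are a description of the cells and not a test of them. In the plot of every gene measured, Cpt1a, Tsc22d3 and Ddit4 stood above the bulk and Jun and Hsph1 below it.

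**Figure D1:**
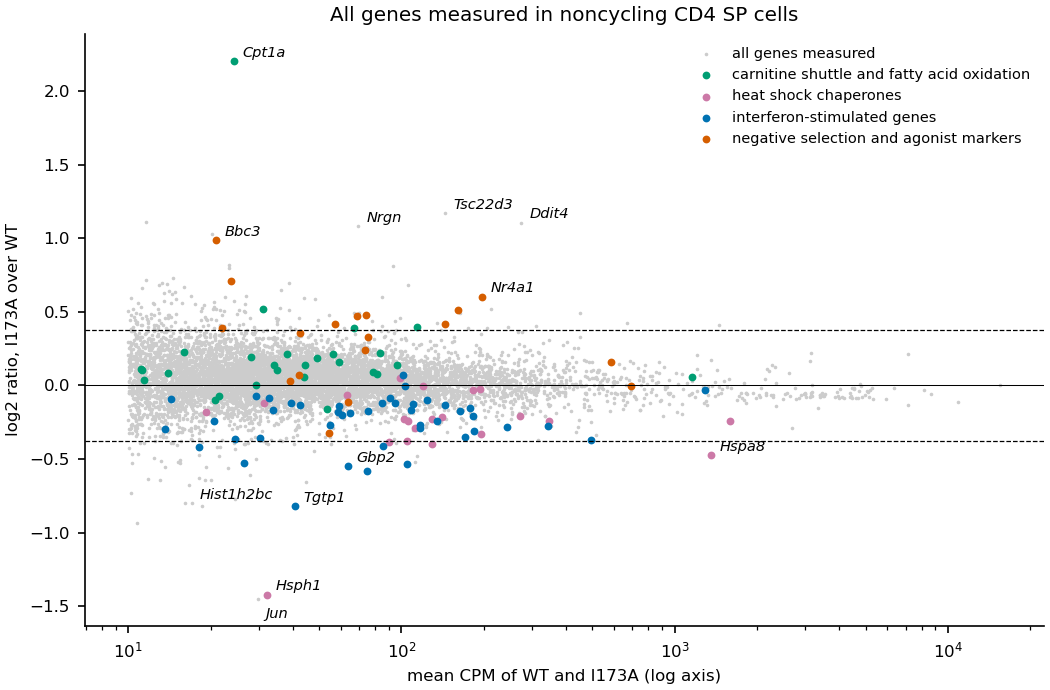
Log2 ratio of I173A over WT (vertical axis) against mean CPM on a log axis for the 8012 genes measured, each point 1 gene, with 4 gene lists coloured and the dashed lines at 1.3-fold either way. Cpt1a is highest at a ratio of 4.61 and Jun lowest at 0.366, and the spread narrows as the mean CPM increases.

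Fatty acid oxidation was led by a single gene. Cpt1a (chromosome 19, 3322326 to 3385735, GRCm38.p6) was at 8.68 CPM in WT (168 UMIs) and 40.04 CPM in I173A cells (631 UMIs), a ratio of 4.61 (3.88 to 5.5). It was the highest ratio among the 1931 genes eligible for the ranking. The 10 cells with the most Cpt1a UMIs held 4.13% of them. Slc25a20, which carries acylcarnitines across the inner mitochondrial membrane, was at 25.6 and 36.7 CPM (1.43, 1.27 to 1.62). Acadvl, the dehydrogenase for very long acyl chains, was at 57.8 and 75.8 CPM (1.31, 1.21 to 1.43). Acaa2, the thiolase that ends each round of oxidation, was at 98.3 and 129.7 CPM (1.32, 1.24 to 1.41).

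Of the 27 measured genes of the carnitine shuttle and fatty acid oxidation list (of 41 listed), 24 were higher and 4 were past 1.3-fold, all upward. The list's median log2 ratio was 0.14, beside 0.04 for all genes. The other members lay within 1.3-fold either way, and the lowest was Acsl5, which activates fatty acids, at 0.896 (0.817 to 0.983). Both subunits of the trifunctional protein were near 1, with Hadha at 1.05 and Hadhb at 1.10. Cpt1b, Cpt1c and Cpt2 were below the floor of 10 CPM.

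Other lipid genes differed less. Hilpda, a lipid droplet protein that inhibits lipolysis, was at 21.4 and 32.7 CPM (1.52, 1.34 to 1.74). Mvk, mevalonate kinase, was at 8.84 and 12.2 CPM (1.38, 1.12 to 1.70), and it was the only one of 13 cholesterol synthesis genes past 1.3-fold, with 11 of them higher and a list median of 0.12. Of the sterol sensing and efflux genes 7 of 13 were higher (53.8%, beside 62% of all genes). Abcg1, an exporter of cholesterol, was at 106 and 82.5 CPM (0.779, 0.726 to 0.835). Of the fatty acid synthesis genes 5 of 13 were higher (38.5%). Fasn was at 0.884 (0.773 to 1.01), Scd2 at 0.983 (0.920 to 1.05) and Srebf1 at 1.09 (0.978 to 1.20).

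Genes known to respond to glucocorticoids held the next highest ratios. Tsc22d3, also called GILZ, a glucocorticoid-induced regulator of transcription, was at 88.9 and 200.4 CPM (2.25, 2.12 to 2.39). Ddit4, which restrains mTORC1 and responds to glucocorticoids, p53 and stress, was at 174 and 374 CPM (2.15, 2.06 to 2.25). Both were spread over many cells, with 2.40% and 1.78% of their UMIs in the 10 highest cells. Pik3ip1, which restrains PI3 kinase, was at 83.4 and 115 CPM (1.38, 1.29 to 1.47). Of 15 measured members, 14 were higher and 4 were past 1.3-fold, with a median log2 ratio of 0.23. The receptor itself, Nr3c1, was at 88.6 and 94.5 CPM (1.07, 0.994 to 1.14), and Fkbp5, a classical target, at 27.5 and 34.2 CPM (1.24, 1.10 to 1.40).

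**Figure D2:**
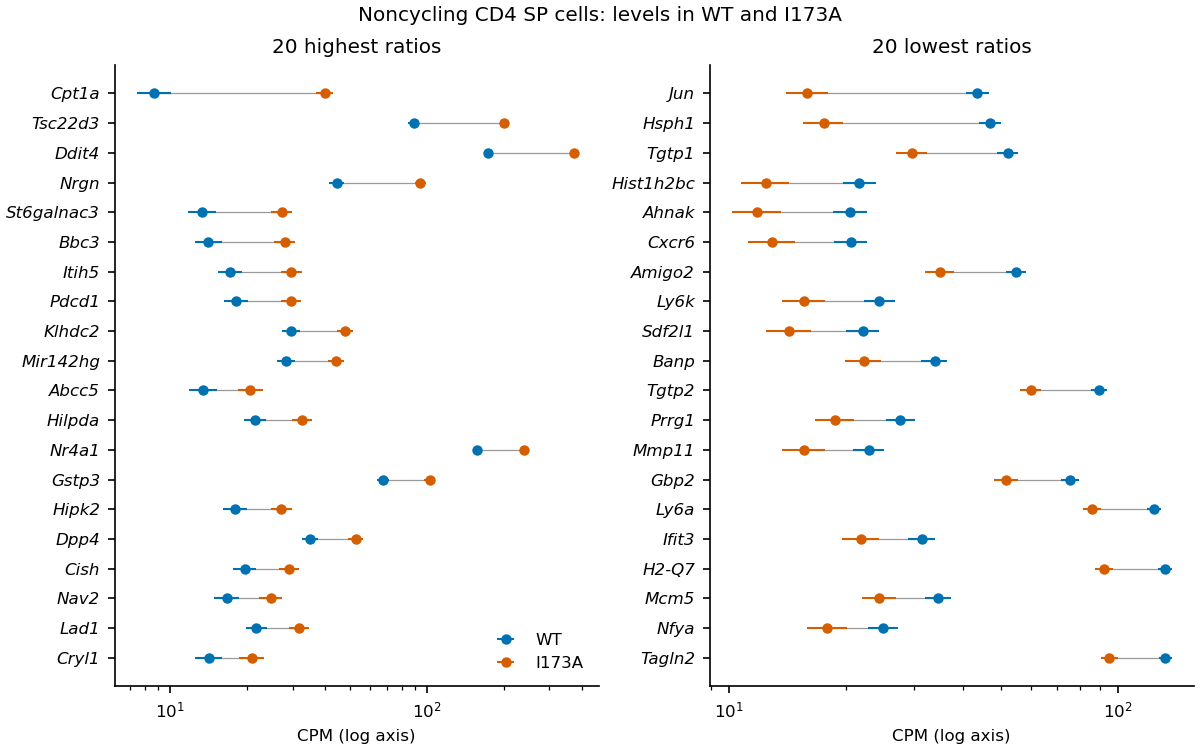
Summed CPM (log axis) in WT and I173A noncycling CD4 SP cells for the 20 genes ranked top by ratio and the 20 ranked bottom; bars are exact 95% Poisson intervals on the counts. The largest gaps are those of Cpt1a (8.68 and 40.04 CPM) and Jun (43.5 and 15.9 CPM).

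Genes of the TCR response did not move as a block. Nr4a1, a nuclear receptor induced rapidly by TCR engagement, was at 157 and 238 CPM (1.52, 1.45 to 1.59). Pdcd1, the inhibitory receptor PD-1, was at 18.1 and 29.6 CPM (1.63, 1.42 to 1.88). Nfkbid, a nuclear IκB protein, was at 62.0 and 86.5 CPM (1.39, 1.29 to 1.51). Egr1, Egr2 and Cd69, which are induced by the same signal, were not higher: Egr1 was at 244 and 231 CPM (0.946, 0.906 to 0.988). Egr2 was at 48.4 and 41.1 CPM (0.848, 0.766 to 0.938), and Cd69 at 169 and 164 CPM (0.972, 0.922 to 1.02). Myc was at 135 and 108 CPM (0.799, 0.752 to 0.850). Of 26 measured genes of the TCR signal list 19 were higher (73.1%, beside 62% of all genes), with a median log2 ratio of 0.13. Of them 6 were past 1.3-fold upward and Rgs1 past it downward (11.99 and 8.69 CPM). Cd5, an inhibitor of TCR signalling whose level tracks signal strength, was at 552 and 615 CPM (1.11, 1.08 to 1.15).

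The receptor complex itself was close to level. Cd3e (chromosome 9, 44998735 to 45009663) was at 1369 and 1475 CPM (1.08, 1.06 to 1.10), a count that covers every Cd3e transcript and does not show the substitution. Cd3d was at 1276 and 1440.5 CPM (1.13, 1.11 to 1.15), the ζ chain gene Cd247 at 667 and 635 CPM (0.951, 0.927 to 0.977), and the costimulatory receptor Cd28 at 405 and 483 CPM (1.19, 1.16 to 1.23). Lck, the kinase that starts the signal, was at 1082 and 955 CPM (0.883, 0.864 to 0.901). Of 36 measured genes for the receptor chains, early kinases and adaptors, none was past 1.3-fold, and the list's median was 0.05.

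Over the whole gate, genes of negative selection and agonist selection had a higher median than the TCR list. Of 18 measured members 15 were higher and 9 were past 1.3-fold, none downward, and the median log2 ratio was 0.37. Bbc3, which encodes the death inducer PUMA, was at 14.1 and 27.9 CPM (1.98, 1.70 to 2.31). Bcl2l11, which encodes BIM, a killer of thymocytes under negative selection, was at 49.1 and 65.5 CPM (1.33, 1.22 to 1.46). Gadd45b was at 19.0 and 24.9 CPM (1.31, 1.13 to 1.51), and the TNF receptor family genes Tnfrsf18 and Tnfrsf4, which encode GITR and OX40, at ratios of 1.43 (1.35 to 1.504) and 1.34 (1.26 to 1.41). Relb, an NF-κB subunit, was the lowest member at 60.5 and 48.5 CPM (0.801, 0.730 to 0.878). The list shares Nr4a1, Pdcd1, Nfkbid, Bcl2l11, Gadd45b and others with the TCR list, so these medians rest in part on the same genes.

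All 12 measured Bcl2 family genes were above 1, but 10 of them by less than 1.3-fold, and the median was 0.08. Bcl2 was at 273 and 286 CPM (1.05, 1.01 to 1.09), Mcl1 at 379 and 395 CPM (1.04, 1.01 to 1.08), and Bax at 148 and 152 CPM (1.03, 0.975 to 1.09). In the p53 target list 12 of 14 were higher, with Ddit4 and Bbc3 the only members past 1.3-fold. The others included the death receptor Fas (1.24, 1.13 to 1.35) and Mdm2, which degrades p53 (1.12, 1.03 to 1.22).

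Regulatory T cell genes were higher over the whole gate, while the lineage factor, counted on few UMIs, was not. All 11 measured members were above 1, 5 of them past 1.3-fold, with a median log2 ratio of 0.38. Il2rb, the β chain of the IL-2 receptor, was at 45.3 and 62.9 CPM (1.39, 1.27 to 1.52). Il2ra, which encodes CD25, was at 9.97 and 16.0 CPM (1.60, 1.32 to 1.94), with 35.5% of its UMIs in 10 cells. Ctla4 was at 25.6 and 33.2 CPM, just under the fold, and Izumo1r, which encodes the folate receptor FR4, at 172 and 219 CPM (1.27, 1.21 to 1.34). Foxp3, under the floor, was at 5.84 and 4.38 CPM (113 and 69 UMIs), a ratio of 0.750 (0.547 to 1.02). Of these 11 genes, Tnfrsf18, Tnfrsf9, Tnfrsf4 and Ikzf2 are also in the agonist list. Cish, a feedback inhibitor of cytokine receptors, was at 19.5 and 29.1 CPM (1.49, 1.298 to 1.71).

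Immature and semimature genes were mostly higher, and none was past 1.3-fold downward. Nrgn, a calmodulin-binding protein, was at 44.7 and 94.4 CPM (2.11, 1.94 to 2.302), with 26.5% of its UMIs in 10 cells. Itm2a, a membrane protein induced in selected thymocytes, was at 1244 and 1651 CPM (1.33, 1.304 to 1.351), and Ccr9, a chemokine receptor of immature thymocytes, at 234 and 301 CPM (1.29, 1.24 to 1.34). Cd8a was at a ratio of 1.44 (1.28 to 1.61). Dntt, the DNA polymerase of V(D)J joining, was at 25.8 and 24.4 CPM (0.945, 0.826 to 1.08). Of 22 measured immature and semimature genes 16 were higher (72.7%, beside 62% of all genes), 4 past 1.3-fold, with a median of 0.14.

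Genes of maturation and egress went both ways. Of 31 measured FoxO target, maturation and egress genes 14 were higher and 17 lower (45.2% higher, beside 62% of all genes). Their median was -0.04, beside 0.04 for all genes. Klf2, which switches on the egress program, was at 630.0 and 604 CPM (0.959, 0.934 to 0.986). Its target S1pr1, the receptor for exit into blood, was at 179 and 153 CPM (0.852, 0.808 to 0.898). Il7r, the IL-7 receptor chain, was at 391 and 466 CPM (1.19, 1.15 to 1.23), and Txnip, a FoxO target that limits glucose uptake, at 268 and 355 CPM (1.33, 1.28 to 1.38). The homing receptor gene Ccr7 was level, at 694 and 693 CPM (0.998, 0.973 to 1.02).

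**Figure D3:**
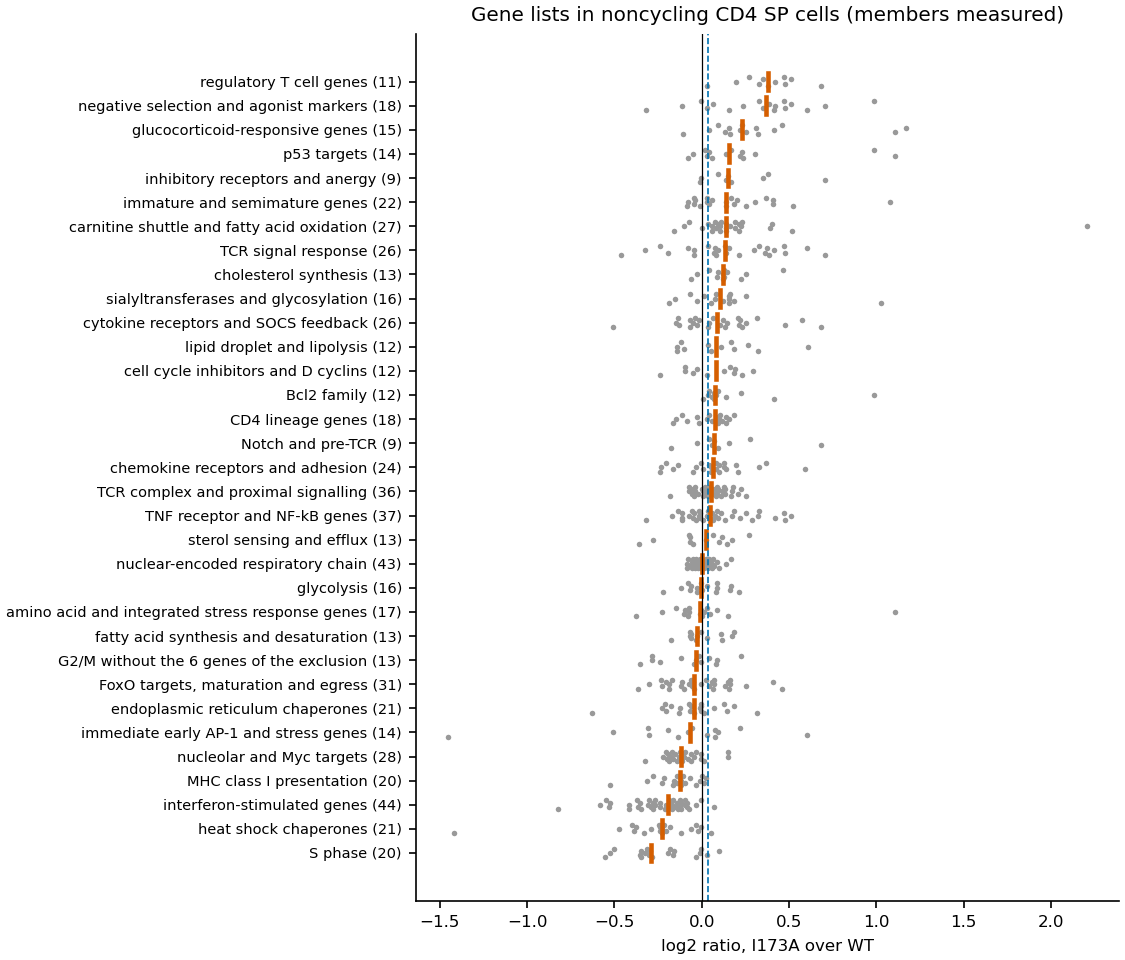
Log2 ratio of I173A over WT for every measured member (grey points) of each gene list with 9 or more measured members; the number is in brackets, the orange bar is the list's median and the dashed line is the median of all genes, 0.04. Regulatory T cell genes (0.38) and negative selection and agonist markers (0.37) are at the top, and heat shock chaperones (-0.23) and S phase genes (-0.29) at the bottom.

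The lowest ratio of all belonged to Jun, a subunit of the AP-1 transcription factor, at 43.5 CPM in WT and 15.9 CPM in I173A cells (0.366, 0.317 to 0.422). The other AP-1 genes did not follow it to that extent. Fos was at 13.1 and 13.8 CPM (1.05, 0.875 to 1.27), Junb at 270.2 and 236 CPM (0.874, 0.837 to 0.911) and Jund at 688 and 626 CPM (0.910, 0.887 to 0.934). Socs3, a feedback inhibitor of cytokine signalling, was at 15.5 and 10.8 CPM (0.702, 0.578 to 0.850). Dusp1 and Zfp36, which are also immediate early genes, were at 1.17 and 1.07. Of the 14 immediate early and stress genes 6 were higher and 8 lower (42.9% higher, beside 62% of all genes).

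Heat shock chaperones were lower almost throughout. Hsph1, a nucleotide exchange factor of the HSP110 class (chromosome 5, 149616843 to 149636498), was at 46.9 and 17.5 CPM (0.374, 0.325 to 0.428). Hspa8, the constitutive HSC70 and one of the most abundant transcripts named here, was at 1577 and 1136 CPM (0.721, 0.708 to 0.734). St13, Stip1 and Fkbp4, cochaperones of HSP70 and HSP90, were at ratios of 0.759, 0.766 and 0.769, the last just short of the fold. Hsp90aa1 and Hsp90ab1, the HSP90 genes, were at 0.795 (0.758 to 0.835) and 0.846 (0.832 to 0.861), and the mitochondrial pair Hspd1 and Hspe1 at 0.863 and 0.866. Of 21 measured members 20 were lower, 4 past 1.3-fold, and the median log2 ratio was -0.23. Dnajb1 was the single member above 1, at 97.1 and 101 CPM (1.04, 0.969 to 1.11). The heat-inducible Hspa1a and Hspa1b were below the floor.

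Heat shock factor binds inverted repeats of GAA. The letters GAA, any 2 bases, TTC, any 2 bases, GAA, and their reverse complement were searched on both strands of the RefSeq windows that run from 250 bases before to 50 bases after a transcription start in GRCm38.p6. They occurred in 7 of 27 windows of these genes (25.9%, windows of 5 of 20 genes), against 0.603% of all 32851 windows. Short sites of the lowest member and of Hspe1 are printed below, with the matched letters in capitals, as the most direct view of that count. The Hspe1 site (chr1:55088053-55088082, plus strand) holds 2 overlapping matches, the first of which begins 89 bases before the start. The Hsph1 site (chr5:149636284-149636304, minus strand) lies after the start, and its match begins at base 15 of the transcribed side in 1 of the gene's 2 windows.
Hspe1: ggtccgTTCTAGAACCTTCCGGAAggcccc
Hsph1: cagaTTCTGGAAAGTTCtcct
A match is a description of the letters and not a site shown to be bound in these cells. In all 13 motifs were searched in 7 gene sets, and the sequences shown were chosen after the matches were seen. The share in a gene list depends on which genes the list holds and not on their genotype ratios. The glucocorticoid response element occurred in 1 of 30 windows of the glucocorticoid list and in 3 of all 32851.

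Interferon-stimulated genes were also lower as a group. Of 44 measured members 43 were lower and 7 were past 1.3-fold downward, with a median log2 ratio of -0.19. Tgtp1 and Tgtp2, interferon-induced GTPases that act against vacuolar parasites, were at 52.1 and 29.5 CPM (0.566, 0.506 to 0.632) and at 89.5 and 59.7 CPM (0.667, 0.616 to 0.723). They are near copies, and how the counter split reads between them is uncertain. Gbp2, a guanylate-binding protein, was at 75.5 and 51.6 CPM (0.684, 0.627 to 0.746). Ifit3, which binds viral RNA complexes, was at 31.4 and 21.8 CPM (0.696, 0.608 to 0.795). Isg15, a ubiquitin-like modifier, was at 266 and 219 CPM (0.823, 0.788 to 0.859). Slfn5 was the single member above 1 (1.05, 0.981 to 1.12), and Ifi27l2a, the most abundant, was at 1309 and 1282 CPM (0.979, 0.961 to 0.997).

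The interferon-stimulated response element was searched as GAAA, any 2 bases, GAAA on both strands of the same windows. It occurred in 27 of 46 windows of the interferon list (58.7%, windows of 25 of 37 genes), against 3.44% of all windows. The list was made of known interferon-stimulated genes, so this share does not bear on the genotype ratios. The 160 bases before the start are printed for the 4 most reduced genes with a match and for Isg15, whose matches overlap, with matched letters in capitals. The stretches are chr11:48992247-48992406 (minus strand) for Tgtp1, chr11:49064213-49064372 (minus) for Tgtp2, chr3:142620503-142620662 (plus) for Gbp2, chr19:34583369-34583528 (plus) for Ifit3 and chr4:156200819-156200978 (minus) for Isg15.
Tgtp1: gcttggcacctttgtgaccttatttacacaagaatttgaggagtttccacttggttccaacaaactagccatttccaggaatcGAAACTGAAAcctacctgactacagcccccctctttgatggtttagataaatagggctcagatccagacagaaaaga
Tgtp2: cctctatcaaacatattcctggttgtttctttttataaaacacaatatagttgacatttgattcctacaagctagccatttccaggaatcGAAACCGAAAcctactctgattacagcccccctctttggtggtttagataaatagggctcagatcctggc
Gbp2: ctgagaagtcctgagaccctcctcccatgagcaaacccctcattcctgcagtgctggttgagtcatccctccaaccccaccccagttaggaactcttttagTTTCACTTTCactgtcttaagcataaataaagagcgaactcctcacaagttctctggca
Ifit3: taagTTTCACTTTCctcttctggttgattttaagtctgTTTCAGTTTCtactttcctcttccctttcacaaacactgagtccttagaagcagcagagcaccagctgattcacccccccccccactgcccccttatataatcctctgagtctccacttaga
Isg15: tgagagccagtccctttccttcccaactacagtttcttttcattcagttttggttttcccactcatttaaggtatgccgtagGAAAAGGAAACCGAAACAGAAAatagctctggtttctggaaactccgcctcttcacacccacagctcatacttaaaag
The match began 77 bases before the start in Tgtp1, 70 in Tgtp2 and 59 in Gbp2. Ifit3 held 2 separate matches and Isg15 a run of 3 overlapping ones. In the windows of the 20 genes with the highest ratios this motif stood at 3.85%, close to its share in all windows.

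Genes of MHC class I presentation, many of them induced by interferon, leaned the same way. Of 20 measured members 17 were lower, with a median of -0.12. H2-Q7, a nonclassical class I gene, was at 132 and 92.2 CPM (0.696, 0.652 to 0.743) and was the only one past 1.3-fold; reads of the H2-Q genes are hard to tell apart. Psme2, a subunit of the proteasome activator, was at 482 and 388 CPM (0.805, 0.779 to 0.831). B2m, the light chain of all class I molecules, was at a ratio of 0.929 (0.912 to 0.946). Ly6a, which encodes Sca-1, was at 124 and 86.0 CPM (0.692, 0.647 to 0.740).

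S phase genes were lower among cells from which mitotic cells had been taken out. Of 20 measured S phase genes 18 were lower and 3 were past 1.3-fold, with a median log2 ratio of -0.29. Mcm5, a subunit of the replicative helicase, was at 34.5 and 24.4 CPM (0.707, 0.622 to 0.803). Hells and Ung, a chromatin remodeller and the uracil glycosylase, were at 0.694 (0.580 to 0.828) and 0.682 (0.564 to 0.824). Of the G2/M genes outside the 6 used for the exclusion, 4 of 13 were higher and 9 lower (30.8% higher, beside 62% of all genes). Their median was -0.03, beside 0.04 for all genes. The S phase list median was -0.07 without the 108 cells of the S phase or cycling-like cluster described below.

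Nucleolar genes and Myc targets leaned downward by small amounts. Of 28 measured genes 25 were lower, none past 1.3-fold, with a median of -0.12. Fbl, the methyltransferase of ribosomal RNA, was at 0.892 (0.851 to 0.936). Of 93 ribosomal protein genes 83 were lower, with a median of -0.06, and these genes took 24.2% of WT and 23.1% of I173A UMIs. All 13 mitochondrially encoded genes were higher, with a median of 0.15, while the 43 nuclear genes of the respiratory chain had a median of 0.00. Of the glycolysis genes 8 of 16 were higher (50%, beside 62% of all genes).

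Other ranked genes fell outside the groups above. St6galnac3, a sialyltransferase, was at 13.3 and 27.2 CPM (2.04, 1.75 to 2.39). Itih5, a matrix-binding protein, was at 17.1 and 29.7 CPM (1.74, 1.505 to 2.00), and Klhdc2, a substrate receptor of a ubiquitin ligase, at 29.6 and 47.9 CPM (1.62, 1.45 to 1.81). Gstp3, a glutathione transferase, was at 67.5 and 103 CPM (1.52, 1.41 to 1.63), and Dpp4, the surface peptidase CD26, at 35.1 and 52.9 CPM (1.51, 1.36 to 1.67). Mir142hg, the host transcript of miR-142, was at 28.3 and 44.3 CPM (1.56, 1.40 to 1.75). On the low side, the histone gene Hist1h2bc was at 21.7 and 12.4 CPM (0.574, 0.482 to 0.682), Amigo2, an adhesion protein, at 54.8 and 34.8 CPM (0.636, 0.573 to 0.706), and Banp, a chromatin protein, at 33.8 and 22.2 CPM (0.657, 0.575 to 0.749). Ahnak and Cxcr6 were at 0.575 and 0.626, but 22.8% and 29.6% of their UMIs were in 10 cells. Without the innate-like cluster described next, Ahnak was at 0.795 and Cxcr6 at 1.83.

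To see whether these ratios held within subsets of the gate, the 5647 cells were clustered into 13 groups. A cluster was called "X-like" only where at least 3 markers of a class were 1.3-fold above the other cells and at least 1 was among its 10 leading genes. The named clusters were mature CD4 SP-like (cluster 3), interferon-responding-like (4), semimature CD4 SP-like (5), agonist-selected-like (6), transitional-like (7 and 12), innate-like (8), early signalled-like (10) and S phase or cycling-like (11), and they held from 60 to 710 cells. Cluster 12 had levels near those of DP cells, with Cd8a at 2368, Cd8b1 at 3629, Zbtb7b at 5.10 and Ccr7 at 25.5 CPM, and Rag1, Arpp21, Ly6d and Dntt among its leading genes. Cluster 7 had Cd8a at 368 and Cd8b1 at 475 CPM. Without both, Cd8a was at a ratio of 1.69 and the median of the immature and semimature list at 0.15. Cluster 8 had Zbtb16 at 104 CPM, but also the highest Foxp3 (48.6 CPM) and Il2ra (107.8 CPM) of the 13 clusters. Its name therefore covers only part of its markers, and its ratios are not those of innate-like cells alone. Clusters 0, 1, 2 and 9 stayed unnamed, and cluster 9 had a median of 1795 UMIs. The shares of clusters were not compared between genotypes, because in 12 of 13 clusters at least 1 of the 10 leading genes was itself past 1.3-fold. Cluster 9, the exception, held 2.11% of WT and 2.49% of I173A cells.

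The leading differences were present in every cluster deep enough to measure them. With at least 50 UMIs over both genotypes, Cpt1a was measured in 7 clusters, with ratios from 3.40 in cluster 2 to 7.14 in the mature-like cluster. Tsc22d3 was measured in 9 clusters, from 1.76 to 3.19, and Ddit4 in 11, from 1.80 to 2.78. Gstp3 was measured in 10 clusters, from 1.41 to 1.88. Hsph1 was measured in 9, from 0.281 to 0.475, and Hspa8 in all 13, from 0.663 to 0.958. Jun was measured in 8 clusters, from 0.161 in cluster 0 to 0.792 in the innate-like cluster. In all of these clusters the direction was that of the whole gate.

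**Figure D4:**
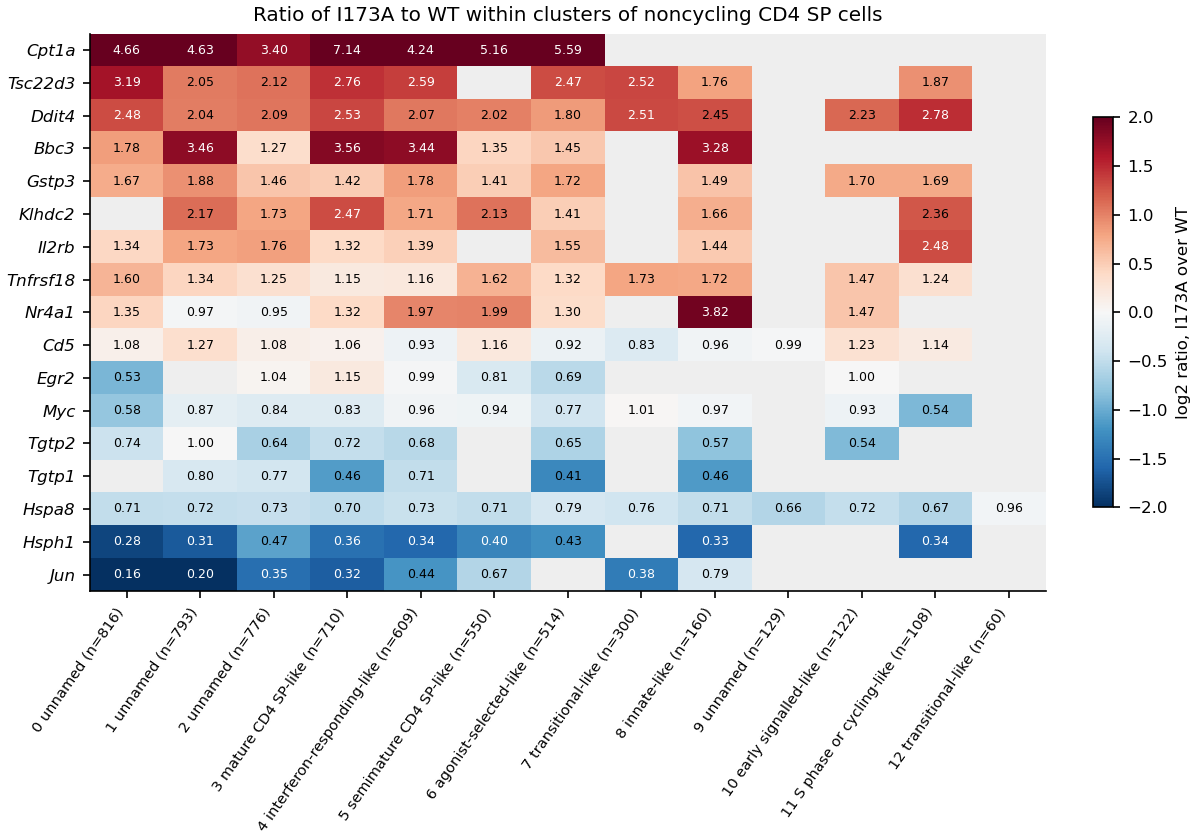
Ratio of I173A to WT (number and colour, log2 scale limited to 2 either way) for 17 genes within each of the 13 clusters; light grey marks fewer than 50 UMIs over both genotypes. Cpt1a, Tsc22d3 and Ddit4 are above 1 and Hspa8 and Hsph1 below 1 in every cluster shown. Cd5 and Egr2 lie on both sides of 1, and Myc is below 1 in 10 of 11 clusters.

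Other ratios depended on the cluster. Nr4a1 was at 0.969 and 0.949 in the unnamed clusters 1 and 2, at 1.97 in the interferon-responding-like, 1.99 in the semimature-like and 3.82 in the innate-like cluster. Bbc3 was at 3.56 in the mature-like, 3.46 in cluster 1 and 3.44 in the interferon-responding-like cluster, against 1.35 in the semimature-like and 1.45 in the agonist-selected-like cluster. Bcl2l11 was at 1.89 and 1.99 in the mature-like and interferon-responding-like clusters and at 0.843 and 0.826 in clusters 1 and 2. Cd5 ran from 0.828 in the transitional-like cluster 7 to 1.27 in cluster 1. Egr2 was at 0.531 in cluster 0, 0.691 in the agonist-selected-like cluster and 1.15 in the mature-like cluster. Il2ra was measured in 2 clusters, at 0.923 and 3.36.

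The list medians differed in how far they depended on the cluster. The heat shock list was negative in each of the 11 clusters where it was measured, from -0.11 in the early signalled-like cluster to -0.30. The interferon list was at -0.02 in the interferon-responding-like cluster and 0.07 in the transitional-like cluster 7, and from -0.11 to -0.30 elsewhere. With equal cluster shares in both genotypes its median was -0.10 in place of -0.19, and Ifit3 was at 0.837. The S phase list was at -0.55 in the S phase or cycling-like cluster and at 0.23 in cluster 2. The negative selection and agonist list was at 0.69 in the innate-like cluster and -0.03 in the transitional-like cluster 7. It was at 0.09 in clusters 1, 2 and 4, and from 0.21 to 0.55 in the others measured. The TCR signal list was above it in clusters 1 (0.16), 4 (0.18) and 7 (-0.01). The regulatory T cell list was at 0.69 in the innate-like cluster. It was at -0.13 in the interferon-responding-like cluster (4 of 9 higher), and from 0.27 to 0.49 in the others measured. The carnitine and fatty acid oxidation list was above 0 in every cluster measured, from 0.02 to 0.27. In the interferon-responding-like cluster it was at 0.021 (12 of 23 higher), below the 0.027 of all genes there. In cluster 1 it was at 0.05, with 14 of 26 higher.

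The TCR repertoire of the same cells was compared by chain recovery, CDR3 length and segment use. A productive α chain was found in 89.0% of WT and 89.1% of I173A cells and a productive β chain in 93.8% and 94.7%. Of cells with an α chain, 14.97% in WT (405 of 2706, exact interval 13.6% to 16.4%) and 13.8% in I173A (321 of 2323, 12.4% to 15.3%) had 2 or more, a ratio of 0.923 (0.795 to 1.07). The mean CDR3α length was 13.5 residues in both, and the median TRAJ segment was number 27 in both, a position that reflects how far rearrangement had proceeded along the locus. The invariant TRAV11-TRAJ18 chain of natural killer T cells was found in 44 WT and 33 I173A cells, of which 43 and 32 were in the innate-like cluster. Among segments found in at least 60 cells, 11 of 31 TRAV (6 higher, 5 lower), 7 of 31 TRAJ (2 and 5), 3 of 19 TRBV (1 and 2) and none of 12 TRBJ segments were past 1.3-fold. The TRAV ratios ran from 0.561 to 1.56, on few cells each. TRAV14-3 (43 and 21 cells, 0.316 to 0.967), TRAV7D-2 (120.0 and 76 cells, 0.539 to 0.978), TRAV13-1 (39 and 53 cells, 1.01 to 2.43) and TRAJ22 (132 and 86 cells, 0.564 to 0.990) were the segments whose interval left out 1, out of 93 examined.

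The same noncycling comparison was made in the other gates, each with its own WT cells from its own library, and the values are set side by side. In CD8 SP cells 2.79% of 7732 genes were past 1.3-fold (1.71% higher, 1.09% lower), and in double-positive (DP) cells 6.17% of 8374 (4.36% higher, 1.82% lower), beside 2.91% in CD4 SP. These shares are not at equal depth. The DP groups held 5984506 (WT) and 7324051 (I173A) UMIs, against 19349030 and 15761003 in CD4 SP. The floor of 10 CPM is therefore fewer UMIs in DP, where counting error is larger. Whether DP cells differed more was not tested. The Cpt1a ratio was 4.61 for CD4 SP, 3.61 for CD8 SP and 6.80 for DP. Tsc22d3 was at 2.25, 2.16 and 1.88, Ddit4 at 2.15, 1.90 and 1.46, and Jun at 0.366, 0.3498 and 0.380. Hspa8 was at 0.721, 0.720 and 0.815. Bbc3 was at 1.98, 1.66 and 0.884, and Bcl2l11 at 1.33, 1.20 and 0.815. Tnfrsf18 was at 1.43, 1.12 and 1.07, and Cd5 at 1.11, 1.10 and 1.37. Nrgn was at 2.11 in CD4 SP and was at 5.47 and 4.58 CPM in CD8 SP, under the floor.

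List medians can be set side by side in the same way. Against backgrounds of 58% of genes higher and 42% lower in CD8 SP, and 54.2% higher and 45.8% lower in DP, 20 of 25 and 18 of 26 carnitine and fatty acid oxidation genes were higher there, with medians of 0.14 and 0.16. The heat shock medians were -0.23 (CD4 SP), -0.23 (CD8 SP, 2 of 21 higher) and -0.11 (DP, 3 of 21). The interferon medians were -0.19 (CD4 SP), 0.00 (CD8 SP, 23 of 44 higher) and -0.03 (DP, 14 of 30). The agonist list was at 0.37, 0.09 and 0.05, and the regulatory T cell list at 0.38, 0.09 and 0.09 over 11, 9 and 3 measured genes. Differences between gates were not tested.

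**Figure D5:**
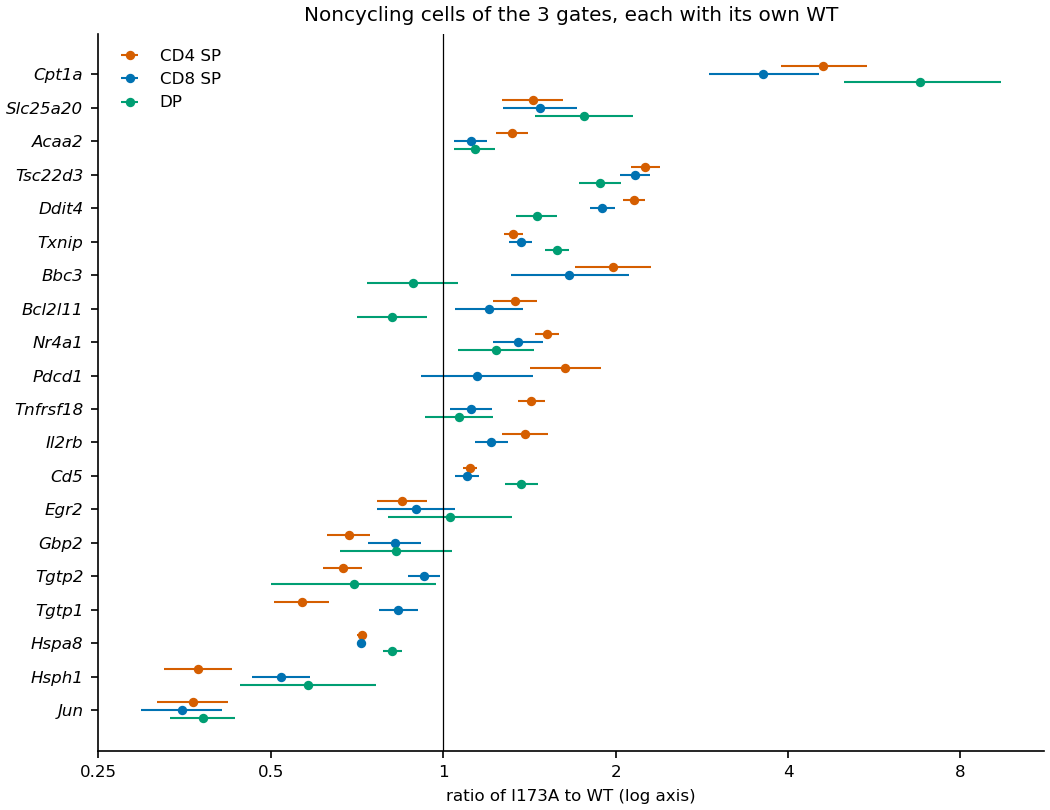
Ratio of I173A to WT (log axis) with exact 95% intervals for counting error in noncycling CD4 SP, CD8 SP and DP cells, for 20 genes; a gate is left out where the gene's mean is under 10 CPM. Cpt1a, Tsc22d3 and Ddit4 lie above 1 and Hspa8, Hsph1 and Jun below 1 in all 3 gates, and Tgtp1 and Gbp2 lie lowest in CD4 SP.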

How the data were processed

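The authors deposited raw UMI counts per gene and barcode, with hashtag counts in the same matrix, and the submitters' processing notes name Cell Ranger 6.0.1, GRCm38 and mm10. TCR contigs were deposited as productive contigs with their UMI counts. Counts of 31053 genes were added up over the cells of a genotype and scaled to that genotype's sum (CPM); ratios carry exact conditional Poisson intervals and shares exact Clopper-Pearson intervals (95%), which cover counting error only. The members and gene lists were chosen with earlier results of these data known. Genes were named as the 20 highest and 20 lowest ratios (at least 200 UMIs, 20 CPM in 1 genotype, interval leaving out 1, without segment, mitochondrial, ribosomal, haemoglobin and clone-named genes), a short list always given (a few of these and of the markers are not reported here), and up to 3 highest and 3 lowest per list; Cd4, Ikzf2, Junb, Jund, Itm2a, Isg15, B2m, Fbl, Bcl2, Mcl1, Mdm2, Hadha, Hadhb, Acadvl, Fkbp5, Gadd45b, Tnfrsf4, Stip1, Fkbp4, Hsp90aa1, Hsp90ab1, Hspd1 and Hspe1 were added after their values were seen. Coordinates come from RefSeq (GRCm38.p6) for 222 of 224 genes. Cells were clustered with Scanpy 1.11.5 and leidenalg 0.10.2 (10000 UMIs per cell, 2000 variable genes, 30 components, 15 neighbours, resolution 1), and the naming rule was set after the clusters were seen. Barcodes with several hashtags were left out; doublets of 1 genotype remain. Interval code was tested on simulated data. Alternatives covered the cell filters, scaling, thinning, cluster shares and the floor.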

Additional observations from a re-analysis of the deposited data

Results flagged for a closer look

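Hashtag 5 carries no genotype in the labels and entered no comparison. Among the genes named by ratio or always, 10 were at least 1.3-fold higher in its 2745 noncycling CD4 SP cells than in WT cells, with Poisson intervals that did not overlap. Only higher levels were searched, and the share over all genes was not counted. Most of the 10 were named for a high ratio over the same WT counts. That choice favours a level above WT here, so the values are a description and not a test. Ddit4 was at 236.7 CPM (WT 174, I173A 374), Nrgn at 76.89 (44.7 and 94.4), Nr4a1 at 204 (157 and 238), Pdcd1 at 24.9 (18.1 and 29.6), St6galnac3 at 17.66 (13.3 and 27.2) and Cryl1, an oxidoreductase, at 18.69 (14.2 and 20.8), all between the other groups. Cish was at 28.12 CPM (19.5 and 29.1). Lad1, a basement membrane protein, was at 35.48 (21.7 and 31.9), Il2ra at 19.78 (9.97 and 16.0) and Ifit3 at 55.96 (31.4 and 21.8), all above both. Cpt1a was at 8.45 CPM on hashtag 5 cells, beside 8.68 in WT and 40.04 in I173A, and Jun at 40.1, beside 43.5 and 15.9.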

How the results depend on the processing

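No paired analysis was possible because each genotype is 1 sample and the labels give no replicate pairs. All 20 highest-ranked genes stayed past 1.3-fold under each alternative except thinning to 2500 UMIs per cell, where 18 did. The 20 lowest all stayed past it under 9 alternatives on cells and scaling; those that did not were Mcm5 with cycling cells kept or without the S phase or cycling-like cluster, Nfya with thinning or without cells carrying markers of other cell types, and Tagln2, Mcm5, Ifit3 and Ly6a at equal cluster shares. Leaving out the innate-like, S phase or cycling-like, low-UMI or both transitional-like clusters was chosen after seeing the data; without the innate-like cluster Cxcr6 turned to 1.834 and Ahnak was at 0.795. With thinning Foxp3 was at 1.004. Counts past 1.3-fold, 169 higher and 64 lower, became 327 and 134 with thinning, 34 and 11 at a floor of 50 CPM, 545 and 241 at 2 CPM, and 201 and 101 with totals free of segment, ribosomal and mitochondrial genes. The share of upward calls was 72.5%, and 56.2% with median-of-ratios size factors, where the median of all genes turned to -0.0002591. That median was 0.0206 with the reduced totals, 0.01968 at equal cluster shares, 0.0407 without cells carrying other cell types' markers (899 WT and 725 I173A cells), 0.02252 at 50 CPM and 0.04041 at 2 CPM. The S phase median was -0.1512 with cycling cells kept, -0.1348 at equal cluster shares and -0.07021 without its cluster; the interferon median was -0.1033 at equal shares. Size factors moved the Bcl2 family to 0.04102 and the nuclear respiratory chain to -0.03302, and leaving out cells with other markers moved sialyltransferases to 0.1709. The causes were not tested. The share ratio of cluster 9 was 1.18, and 1.20 and 1.17 in the other clusterings. Depth limits genes near the floor: 10 CPM is under 200 UMIs per group.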

Other observations

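Around Cd3e on chromosome 9, the share of genes past 1.3-fold was above that of all genes. Within 10 Mb on each side, 6 of 78 measured genes were past it (7.69%, beside 2.91% of all genes and 1.48% to 5.25% over whole chromosomes). Within 1 Mb on each side, 2 of 28 were (7.14%). The chromosomes held from 189 to 656 measured genes, so their shares vary less than that of a small window. Other windows of this size were not counted. Il10ra, the IL-10 receptor chain, was at 10.0 and 14.7 CPM (1.47, 1.21 to 1.79), Ift46 at 8.89 and 11.6 CPM, Hyls1 at 10.8 and 14.1 CPM and Rexo2, a mitochondrial oligoribonuclease, at 108 and 82.4 CPM (0.762, 0.711 to 0.817). Hspa8 and Nrgn were the other members. In CD8 SP cells Il10ra was at 3.12 and 8.04 CPM, and Rexo2 at 151 and 129.6 CPM. The median log2 ratio of the 78 genes was 0.04, that of all genes. The region was chosen after the values were seen, and the genes are few and 4 of the 6 are near the floor or concentrated in few cells.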
